A study of Mus musculus with 15 samples.

Results

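Heat shock chaperones are described here in mouse LSK cells, the lineage-negative, Kit-positive and Sca-positive bone marrow fraction that holds hematopoietic stem and progenitor cells. The set was fixed by gene symbol at 10 genes, Hspa1a, Hspa1b, Hspa8, Hspa9, Hspd1, Hspe1, Hsp90aa1, Hsp90ab1, Dnajb1 and Hsph1. A member was measured through its brightest probe set among those that the platform annotation gives to exactly 1 gene symbol. By this rule 9 of the 10 members were measured among 22180 genes, and Hsp90ab1, the constitutive cytosolic HSP90, had no such probe set and was not analysed here.

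LSK cells were compared in 3 groups of 5 arrays. One group was taken directly after cell sorting (non-cultured), one was kept for 18 h in MyeloCult medium without extracellular vesicles (EV), and one for 18 h in the same medium with EV released by AFT stromal cells. Both cultured groups therefore share the medium and the time, and the vesicles come from a single stromal source. All 3 groups are labelled HSPC, with no genotype, strain, age or treatment beyond the EV in the labels, and the series' design describes biological replication by 5 within each group.

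Chaperones of this set help proteins fold and keep unfolded ones from clumping. HSP70 proteins bind exposed hydrophobic stretches in a cycle driven by ATP, which J proteins such as Dnajb1 start and nucleotide exchange factors such as Hsph1 reset. HSP90 takes over partly folded clients such as kinases and steroid receptors, while Hspd1 and its lid Hspe1 form a folding chamber in mitochondria. Each compartment has constitutive members. Some chaperone genes, cytosolic copies among them, are switched on under stress by heat shock factor 1 (HSF1). HSF1 binds heat shock elements, which are inverted repeats of GAA in promoters. Hematopoietic stem cells are known to keep protein synthesis low and to be sensitive to misfolded protein.

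Of the 10 members, 6 had a promoter in the RefSeq table of GRCm38.p6, in 9 windows of 250 bases upstream of a transcript start. The stretches that hold a heat shock element are shown because they set apart the shared promoter of the mitochondrial pair and the near-identical promoters of the inducible HSP70 copies. Capitals mark GAANNTTC or TTCNNGAA, each of which is its own reverse complement, so that a match stands on both strands and the motifs may overlap.
Hspe1, chr1:55088039-55088096, plus strand: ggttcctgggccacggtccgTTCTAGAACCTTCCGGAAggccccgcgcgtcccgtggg
Hspd1, chr1:55088039-55088096, minus strand: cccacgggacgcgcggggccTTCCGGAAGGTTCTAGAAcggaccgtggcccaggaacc
Hspa1a, chr17:34972233-34972280, minus strand: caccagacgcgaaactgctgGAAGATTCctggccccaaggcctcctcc
Hspa1b, chr17:34959315-34959362, minus strand: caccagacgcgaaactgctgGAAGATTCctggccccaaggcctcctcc
Hsph1, chr5:149636342-149636389, minus strand: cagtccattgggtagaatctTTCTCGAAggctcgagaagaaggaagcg

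The Hspe1 and Hspd1 lines are the same 58 bases read from both strands. Hspe1 starts at position 55088148 and runs to the right, and 1 of the 2 listed starts of Hspd1 lies 216 bases to its left, at 55087932, and runs to the left. The 18 capital bases between them are a run of alternating TTC and GAA units, each 2 bases apart. Within this longer run each strand holds GAANNTTC followed directly by NNGAA, a 3-unit element. A match to the 3-unit element was found in 0.466% of 32851 promoter windows of 250 bases, against 6.69% for GAANNTTC and 7.17% for TTCNNGAA. Upstream of Hspa1a and Hspa1b the 250-base windows shared 247 bases (98.8%) and differed at C44T, T47C and T249G, given as the Hspa1a base, its position from the 5′ end of the window and the Hspa1b base. Neither Dnajb1 window held a match to these letters. A match is a description of the sequence and no evidence of binding in these cells.

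All values below are log2 signals as deposited, and a difference between groups is a difference of log2 means with its standard error (SE) from limma, fitted to all 15 arrays. The two-sided test was called past an adjusted p of 0.05, with the Benjamini-Hochberg adjustment made across the 22180 genes. Array medians over all probe sets lay between 4.62 and 4.74. Of the 8 measured LSK markers, 7 lay above the median of all genes in each group, among them Kit, Cd34 and Flt3, and Slamf1 did not. All 5 measured lymphoid markers lay below that median in each group. The mean of the 8 stromal markers ranged from 4.59 to 4.70 in non-cultured arrays and from 4.62 to 4.74 without EV. With EV it ranged from 4.68 to 4.98, and this was not tested. The mean of the 2 measured erythroid markers ranged from 4.93 to 5.43 in non-cultured arrays. It ranged from 5.14 to 5.58 without EV and from 5.33 to 5.53 with EV. The mean of the 6 granulocyte and macrophage markers ranged from 5.46 to 6.75 in non-cultured arrays, from 7.16 to 7.55 without EV and from 6.98 to 7.48 with EV, and its part in the differences below was not tested. In the same order of groups, S100a8 (means 8.04, 10.79 and 10.71) and S100a9 (7.94, 10.37 and 10.36) differed most. Itgam and Adgre1 were higher after culture by less. Ly6g (2.99, 3.11 and 3.00) and Elane (8.61, 8.72 and 8.32) did not share the rise. Non-cultured replicates 4 and 5 stood apart in the mean of the list, with the granule gene S100a8 at 5.92 and 6.42 against 9.20 to 9.37 in replicates 1 to 3. In such bulk samples fewer cells of a type and less RNA per cell cannot be told apart.

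Most chaperones of the set were lower after 18 h of culture, with or without EV, and none was called higher. Of the 9 measured members, 6 fell in culture without EV relative to non-cultured cells: Hspa9, Hsp90aa1, Hspd1, Dnajb1, Hspe1 and Hspa1b. With EV against non-cultured cells 6 also fell, with Hspa1a in place of Hspa1b. Hspa1a and Hspa1b were dim and cannot be told from background here, and without the dimmest 40% of genes, which takes out both, 5 of the 7 remaining members fell in each comparison. Without the filter, 6.88% of all genes were called lower and 6.75% higher in the first comparison, and 7.85% and 6.28% in the second. The median difference of the 9 members was -0.50 without EV and -0.63 with EV, beside 0.01 and 0.04 over all genes. Both comparisons use the same 5 non-cultured arrays. Groups did not overlap, with every cultured array below every non-cultured one, for 5 members without EV and 6 with EV, where 6.10% and 6.18% of all genes lay that way and 5.89% and 5.06% the opposite way. No member lay fully higher.

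**Figure D1:**
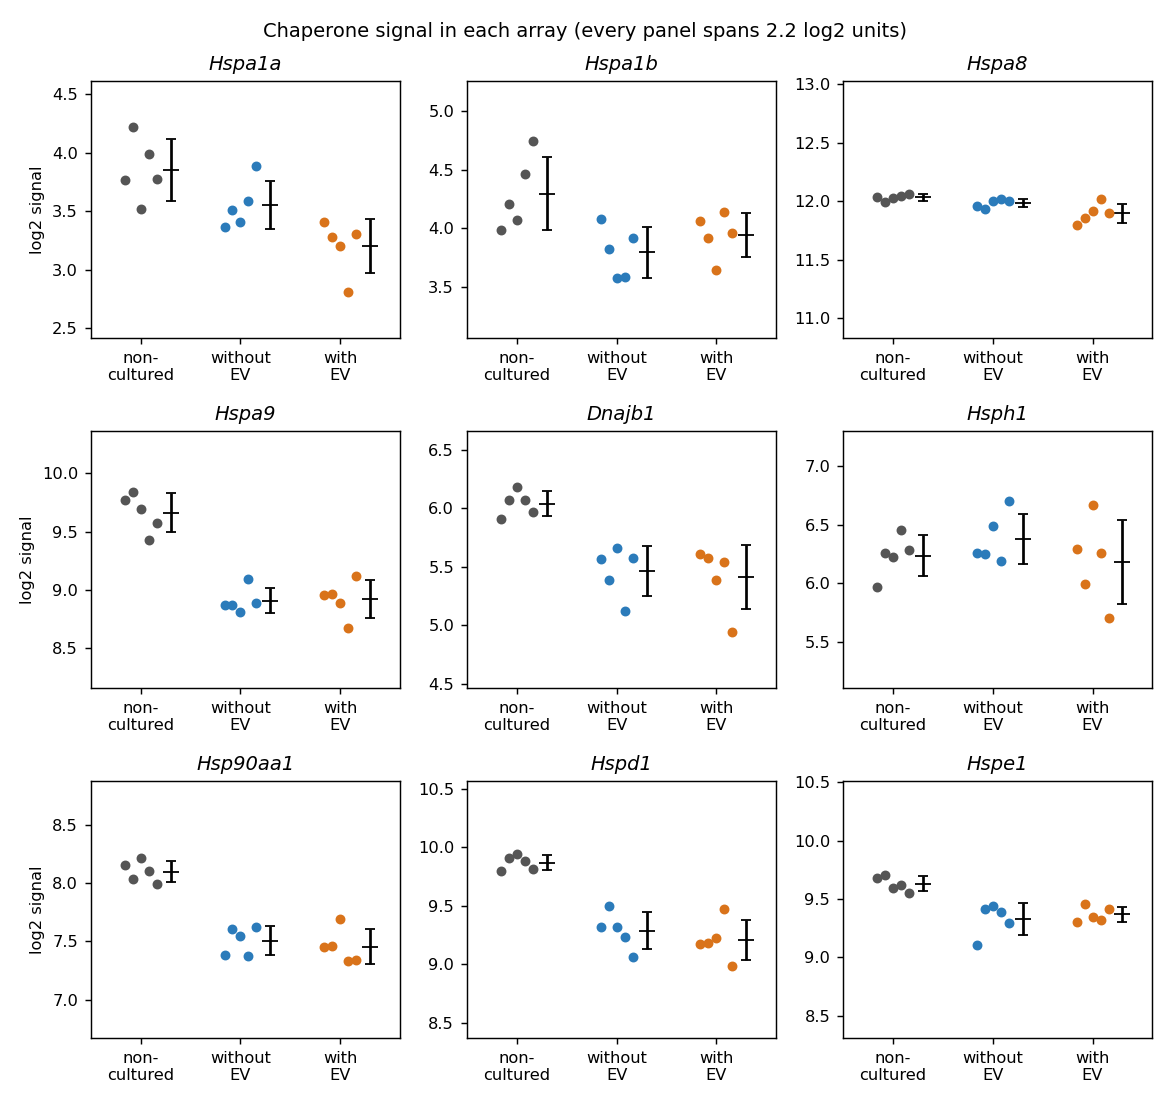
Log2 signal (vertical axis) of the 9 measured members in each of the 15 arrays, by group (horizontal axis), with points for single arrays in replicate order and a bar for mean and SD (n = 5); every panel spans the same range of log2 units. Hspa9, Hsp90aa1, Hspd1 and Dnajb1 lie lower in all 10 cultured arrays than in the 5 non-cultured ones, while Hsph1 overlaps between all groups.

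Hspa9, also called mortalin, is the HSP70 of the mitochondrial matrix, where it pulls in and folds imported proteins. Its signal in non-cultured replicates 1 to 5 was 9.77, 9.84, 9.70, 9.43 and 9.57. Without EV it was 8.87, 8.87, 8.82, 9.09 and 8.89, and with EV 8.96, 8.96, 8.89, 8.68 and 9.12. All 10 cultured arrays lay below the lowest non-cultured one, and the cultured groups overlapped. Hspa9 fell 1.69-fold without EV (log2 -0.75, SE 0.10, limma adjusted p = 7.49e-05, 5 arrays in each group) and 1.67-fold with EV (log2 -0.74, SE 0.10, adjusted p = 8.98e-05). Hspa9 was lower in non-cultured replicates 4 and 5, the arrays with low S100a8, than in replicates 1 to 3, and without both arrays the falls were not smaller (log2 -0.86 and -0.85).

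Hspd1, the mitochondrial chaperonin HSP60, gave 9.79, 9.91, 9.95, 9.89 and 9.82 in non-cultured cells. After culture it gave 9.32, 9.50, 9.32, 9.23 and 9.06 without EV and 9.17, 9.19, 9.22, 9.47 and 8.99 with EV. Again no cultured array reached the non-cultured range. Hspd1 fell by 0.58 on the log2 scale without EV (SE 0.10, limma adjusted p = 0.00062) and 1.58-fold with EV (log2 -0.66, SE 0.10, adjusted p = 0.000198).

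Hspe1 encodes HSP10, the lid of the Hspd1 chamber, and shares with Hspd1 the promoter stretch printed above. Its signals were 9.68, 9.71, 9.59, 9.62 and 9.55 in non-cultured cells, 9.11, 9.42, 9.44, 9.39 and 9.29 without EV, and 9.30, 9.46, 9.35, 9.32 and 9.41 with EV. The groups did not overlap, although the gap between the highest array with EV and the lowest non-cultured one was small. Hspe1 fell 1.23-fold without EV (log2 -0.30, SE 0.08, limma adjusted p = 0.0161) and 1.20-fold with EV (log2 -0.26, SE 0.08, adjusted p = 0.0355). After quantile normalization neither call held (adjusted p = 0.0571 and 0.181), and with the replicate number as a block the call with EV did not hold (adjusted p = 0.0562). That call was also lost in 8 of 15 fits that left out 1 array each, namely replicates 1 to 4 of the non-cultured group and replicates 1, 3, 4 and 5 with EV (log2 -0.24 to -0.27, adjusted p = 0.0501 to 0.0844).

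Hspe1 fell less than its partner Hspd1 when both were read from the same array. The log2 difference of Hspd1 from Hspe1 moved by -0.40 with EV against non-cultured cells, with the sign held in 24 of 25 pairs of arrays (exact permutation test, two-sided, p = 0.0159, adjusted p = 0.0476 over 18 tests on 6 pairs of members). Without EV it moved by -0.28 in 23 of 25 pairs of arrays (exact permutation p = 0.0238, adjusted p = 0.0612) and did not pass. It passed after quantile normalization (-0.31, exact permutation p = 0.0159, adjusted p = 0.0408). Filtering out dim genes left the change and its p the same, and the adjusted p of 0.0357 then came from adjusting over fewer pairs. With genes taken as the mean of all their probe sets, the change with EV and its p were the same, but the adjusted p was 0.0571. The call with EV was lost in 8 of 15 fits without 1 array, those without any one non-cultured array or without replicate 2, 3 or 5 with EV (log2 -0.33 to -0.43, exact permutation p = 0.0159 to 0.0238, adjusted p up to 0.0857). The smallest p that 5 arrays against 5 allow in this test is 0.00794. With arrays left out fewer splits remain, so that a call may be lost through the number of arrays alone. Without non-cultured replicates 4 and 5 none of the pairs that passed did so (exact permutation p = 0.0179 to 0.0714, adjusted p = 0.0804 to 0.161). The change of Hspd1 against Hspe1 with EV was then -0.38.

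Hsp90aa1 is the stress-inducible cytosolic HSP90. It gave 8.15, 8.04, 8.21, 8.10 and 7.99 in non-cultured cells, 7.38, 7.60, 7.55, 7.38 and 7.62 without EV, and 7.46, 7.46, 7.70, 7.33 and 7.34 with EV. The cultured and non-cultured arrays were fully apart, and both cultured groups lay over one another. Hsp90aa1 fell 1.51-fold without EV (log2 -0.59, SE 0.09, limma adjusted p = 0.00025) and 1.56-fold with EV (log2 -0.64, SE 0.09, adjusted p = 0.000118). How this compares with Hsp90ab1 was not analysed here.

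Dnajb1, or HSP40, is the J protein that delivers clients to cytosolic HSP70, and its gene is a classical HSF1 target. Its signals were 5.91, 6.07, 6.18, 6.07 and 5.97 in non-cultured cells, 5.57, 5.39, 5.66, 5.12 and 5.57 without EV, and 5.61, 5.58, 5.38, 5.54 and 4.94 with EV. Every cultured array was below every non-cultured one, with a wider spread after culture (SD 0.21 and 0.28, against 0.11). Dnajb1 fell 1.49-fold without EV (log2 -0.58, SE 0.13, limma adjusted p = 0.00645) and 1.55-fold with EV (log2 -0.63, SE 0.13, adjusted p = 0.00344). The falls of Hspa9, Hspd1, Hsp90aa1 and Dnajb1 were called in both comparisons in each of 25 alternative fits per gene and comparison, which left out single arrays or changed the scaling, the filter, the probe set rule, the block or the variance model (adjusted p at most 0.0275).

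Hsph1, an HSP110 protein that resets HSP70 and is itself heat-inducible, did not follow Dnajb1. It gave 5.97, 6.26, 6.22, 6.45 and 6.29 in non-cultured cells, 6.26, 6.25, 6.49, 6.19 and 6.70 without EV, and 6.29, 6.0, 6.67, 6.26 and 5.70 with EV. All 3 groups overlapped. The difference was log2 0.14 without EV (95% interval -0.19 to 0.47) and -0.05 with EV (-0.39 to 0.28), so that a fall as large as that of Dnajb1 lies outside both intervals. The within-array difference of Dnajb1 from Hsph1 moved by -0.72 without EV and -0.57 with EV, in 25 of 25 pairs of arrays each time (exact permutation p = 0.00794, the smallest this test allows, adjusted p = 0.0357). With EV the call was lost without any one non-cultured array, where fewer splits remain (log2 -0.54 to -0.62, exact permutation p = 0.0159 each time, adjusted p up to 0.0714).

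**Figure D2:**
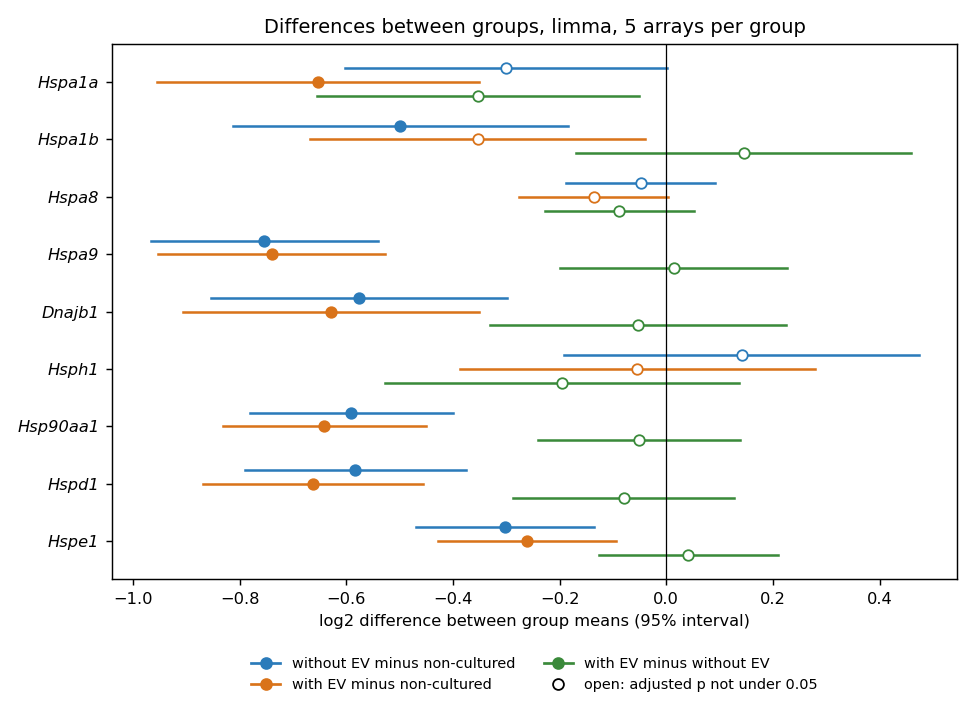
Log2 difference between group means (horizontal axis) for the 9 measured members (vertical axis) in the 3 comparisons, with 95% intervals from limma (n = 5 per group); filled points are called at an adjusted p under 0.05. The blue and orange culture comparisons lie left of 0 for all members but Hsph1 without EV, and the green comparison of EV with no EV has no filled point.

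Hspa8, the constitutive cytosolic HSP70 also known as HSC70, was not called in either culture comparison on the probe set chosen by the rule. That probe set, 17548379, gave means of 12.03 ± 0.03 in non-cultured cells, 11.99 ± 0.03 without EV and 11.90 ± 0.08 with EV (SD, n = 5 each). It ranked above 99.9% of genes in every array, where the highest signal of any probe set lay between 12.8 and 13.03. The groups overlapped in both comparisons, with differences of log2 -0.05 (SE 0.07, limma adjusted p = 0.759) and -0.14 (SE 0.07, adjusted p = 0.205). With EV the call was made when the prior variance followed the signal (adjusted p = 0.0136).

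Hspa8 has 3 further probe sets of its own, and the differences were larger on both dimmer probe sets than on both brighter ones. Probe set 17548744, with a non-cultured mean of 11.93, differed by -0.05 without EV and -0.13 with EV. Probe set 17516365, with a mean of 10.86, differed by -0.19 (limma adjusted p = 0.0604 in place of the brightest) and fell by 0.26 on the log2 scale with EV (adjusted p = 0.0109). The dimmest, 17434475, with a mean of 9.76, fell by 0.28 without EV (adjusted p = 0.0249) and by 0.36 with EV (adjusted p = 0.00409). On both dimmer probe sets all 25 pairs of arrays were lower in each culture comparison. The 4 probe sets report 1 gene and are not independent, Hspa8 has processed copies in the genome that probes may share, and the reason for the spread was not tested. With the mean of all its probe sets Hspa8 was called with EV (log2 -0.22, adjusted p = 0.0283), while probe set 17548744 in place of the brightest was called in neither comparison (adjusted p = 0.770 without EV and 0.213 with EV). The replacements were chosen after seeing the data.

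**Figure D3:**
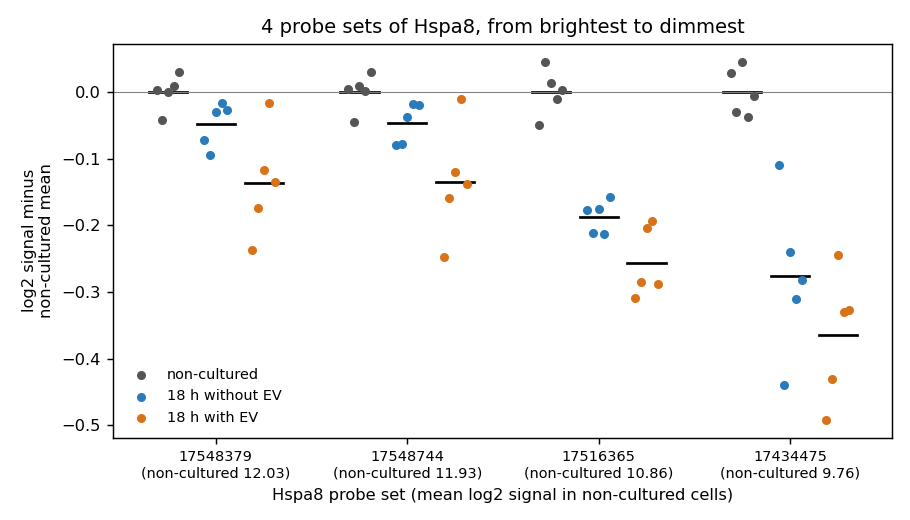
Log2 signal minus the non-cultured mean (vertical axis) for each array on the 4 probe sets of Hspa8 that carry 1 symbol (horizontal axis, brightest to dimmest, with the non-cultured mean in brackets); points are arrays and black lines group means (n = 5). The mean without EV lies 0.05 below the non-cultured mean on the brightest probe set and 0.28 below it on the dimmest.

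Cytosolic and mitochondrial HSP70 differed in their response on the chosen probe sets. The within-array difference of Hspa8 from Hspa9 moved by 0.71 without EV and 0.60 with EV, in 25 of 25 pairs of arrays (exact permutation p = 0.00794, adjusted p = 0.0357 in both). Both calls held with each of the other 3 Hspa8 probe sets (change 0.38 to 0.71), and Hspa9 fell by more than any of the 4. The call with EV was lost without replicate 4 of that group, where fewer splits remain (0.51, exact permutation p = 0.0159, adjusted p = 0.0571).

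Hspa1a and Hspa1b encode the inducible cytosolic HSP70, the classical product of a heat shock, from neighbouring near-identical genes. Both were dim, below the median of all genes in each of the 15 arrays. Hspa1a gave 3.77, 4.22, 3.52, 3.99 and 3.77 in non-cultured cells, 3.37, 3.51, 3.41, 3.59 and 3.89 without EV, and 3.41, 3.28, 3.20, 2.81 and 3.31 with EV. Hspa1b gave 3.98, 4.21, 4.07, 4.46 and 4.75 in non-cultured cells, 4.08, 3.82, 3.57, 3.58 and 3.92 without EV, and 4.06, 3.91, 3.64, 4.14 and 3.96 with EV. No array showed a high signal for either copy. The files give no background level, so these values cannot be told from background, and probes for one copy may also read the other. The differences below are therefore those of dim probe sets, given without folds.

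With EV the Hspa1a signal was below every non-cultured array and was called lower (log2 -0.65, SE 0.14, limma adjusted p = 0.00483), while without EV it overlapped (log2 -0.30, SE 0.14, adjusted p = 0.208). The Hspa1b signal was called lower without EV (log2 -0.50, SE 0.15, adjusted p = 0.0336) and not with EV (log2 -0.35, SE 0.15, adjusted p = 0.137). The Hspa1b call was lost in 6 of 15 fits that left out 1 array, those without replicates 2, 4 or 5 of the non-cultured group or replicates 2, 3 or 4 without EV (log2 -0.39 to -0.52, adjusted p = 0.0506 to 0.0852). It was also lost with only both groups compared in the fit (adjusted p = 0.0540) and, in an alternative added after seeing the data, with p-values adjusted over all probe sets (adjusted p = 0.0580). Hspa1b was highest in non-cultured replicates 4 and 5, and without both the difference was -0.29 (adjusted p = 0.237). The within-array difference between the copies was not shown to change in any comparison, the nearest being log2 -0.50 for Hspa1a against Hspa1b with EV against without EV (exact permutation p = 0.0397, adjusted p = 0.0794). Against the brightest Hspa8 probe set, Hspa1a moved by -0.52 with EV (exact permutation p = 0.0159, adjusted p = 0.0476), which did not hold with probe set 17516365 (adjusted p = 0.0893) or 17434475 (adjusted p = 0.286) for Hspa8. It was also lost in 9 of 15 fits without 1 array, those without any one non-cultured array or without replicate 2, 3, 4 or 5 with EV (log2 -0.39 to -0.60, adjusted p up to 0.102).

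No member differed past the threshold between cultured cells with and without EV. With EV against without EV, 0 of the 9 were called by limma, and 1, Hspa1a, had an unadjusted p under 0.05 (log2 -0.35, SE 0.14, adjusted p = 0.667, lower in 24 of 25 pairs of arrays). In this comparison 0.018% of all genes were called lower and 0.180% higher, and 1513 of 22180 had an unadjusted p under 0.05. The median difference of the members was -0.05, beside 0.01 over all genes, and no member had groups that did not overlap, as 0.437% of all genes did on the lower and 0.762% on the higher side. The 95% intervals were -0.20 to 0.23 for Hspa9, -0.29 to 0.13 for Hspd1, -0.24 to 0.14 for Hsp90aa1 and -0.13 to 0.21 for Hspe1. They were -0.33 to 0.23 for Dnajb1, -0.23 to 0.05 for Hspa8, -0.53 to 0.14 for Hsph1, -0.17 to 0.46 for Hspa1b and -0.66 to -0.05 for Hspa1a. These intervals are not adjusted for the number of genes. All but that of Hspa1a held 0, and true differences anywhere inside them remain possible with 5 arrays per group. None of the 6 pairs of members passed in this comparison.

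The other chaperone genes were taken from lists by role, of which 79 of 86 genes were measured, the members left out. In culture without EV 19 of the 79 fell relative to non-cultured cells (24.1%) and 6 rose (7.59%), beside 6.88% and 6.75% of all genes, with a median log2 difference of -0.17. With EV against non-cultured cells 22 fell and 4 rose, beside 7.85% and 6.28% of all genes, with a median of -0.23. With EV against without EV none of the 79 was called by limma. An unadjusted p under 0.05 was found for 8 of the 79, beside 1513 of all 22180 genes.

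The cytosolic chaperonin TRiC, the ring that folds actin and tubulin, and prefoldin, which feeds it, fell in 6 of 13 measured genes without EV and 7 with EV, and none rose. Cct2 fell 1.58-fold without EV (log2 -0.66, SE 0.11, limma adjusted p = 0.000453) and 1.71-fold with EV, and Tcp1, another ring subunit, fell 1.46-fold and 1.51-fold. Cct6a fell 1.42-fold and 1.47-fold. Of 6 mitochondrial proteases and import partners beside Hspd1, Hspe1 and Hspa9, the protease Lonp1 (log2 -0.43) and Timm44 (log2 -0.47), which docks Hspa9 at the import channel, fell without EV, and Hscb, a J protein of iron-sulfur cluster assembly, rose (log2 0.34). With EV only Lonp1 of these 6 was called (log2 -0.46).

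HSP90 partners moved both ways. Of 13 measured, 3 fell and 3 rose in culture without EV. The immunophilin Fkbp4 fell 1.89-fold (log2 -0.92, SE 0.14, limma adjusted p = 0.000346), the mitochondrial HSP90 Trap1 fell 1.62-fold (log2 -0.69, SE 0.11) and Stip1, which hands clients from HSP70 to HSP90, fell 1.33-fold (log2 -0.41, SE 0.10). Fkbp5, the related immunophilin that slows steroid receptor activation, rose by log2 1.87 (SE 0.20, adjusted p = 1.08e-05), from a mean of 5.68 ± 0.50 to 7.56 ± 0.28 (SD, n = 5). Cdc37l1 rose by log2 1.25 (SE 0.22) and Chordc1, named after its values were seen, by 0.74 (SE 0.14). With EV 4 fell and 3 rose, and Unc45a, a co-chaperone for myosin folding named after its values were seen, was among the 4 (log2 -0.54, SE 0.15, limma adjusted p = 0.0236), against -0.17 without EV (adjusted p = 0.593). With EV the other differences were -0.88 for Fkbp4, -0.73 for Trap1, -0.43 for Stip1, 1.77 for Fkbp5, 1.02 for Cdc37l1 and 0.60 for Chordc1, and all 6 were called there too.

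Among partners of HSP70, 4 of 15 measured J proteins fell without EV and 4 with EV, and none rose. Dnajc9, a J protein that also binds histones, fell 1.76-fold without EV and 2.23-fold with EV, and Dnajb6 fell 1.34-fold and 1.46-fold. Of 10 exchange and release factors, Hspbp1 (log2 -0.59 without EV, -0.69 with EV) and Bag6 (log2 -0.52 and -0.51) fell in both comparisons. Bag3, a stress-inducible release factor and HSF1 target, did not pass, with differences of 0.06 (SE 0.16, limma adjusted p = 0.884) and 0.01. Hspa14, a ribosome-bound HSP70, fell 1.75-fold and 1.88-fold, and Hspa13, of the microsomes, fell with EV (log2 -1.16, SE 0.21) and differed by -0.57 without (adjusted p = 0.0923). Of the HSP110 family Hspa4l rose without EV (log2 0.41) and Hspa4 fell with EV (log2 -0.42).

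Small heat shock proteins and heat shock factors were mostly not called. Of 8 measured small heat shock proteins Hspb8 rose, by log2 0.55 without EV (SE 0.13) and 0.75 with EV (SE 0.13). Its signal was dim, with means of 4.10 in non-cultured cells, 4.65 without EV and 4.84 with EV. These means lay below the median of all genes, and the files give no background level to set them against. Hspb1, the inducible HSP27, differed by 0.21 (SE 0.17) and 0.27 (SE 0.17). Of 6 factors and regulators Ier5, an early response gene whose product acts on HSF1, fell 2.53-fold without EV (log2 -1.34, SE 0.16, limma adjusted p = 2.95e-05) and 2.30-fold with EV. Hsf2 differed by -0.45 (SE 0.18, adjusted p = 0.135) and -0.20 (SE 0.18). Hsf1 and Dnaja1 were not analysed here.

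**Figure D4:**
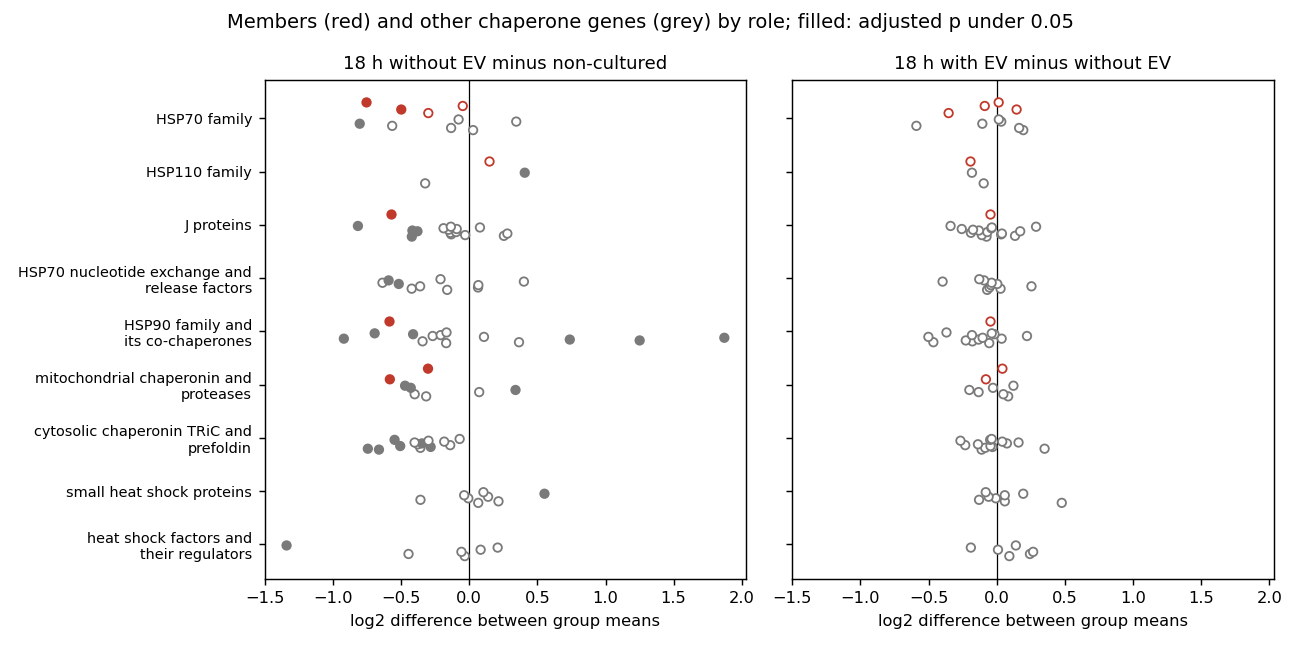
Log2 difference between group means (horizontal axis) for the 9 measured members (red) and 79 other chaperone genes (grey), by role (vertical axis), without EV against non-cultured (left) and with EV against without EV (right); filled points are called at an adjusted p under 0.05. On the left 6 red and 19 grey points are called lower and 6 grey points higher, and on the right none is called.

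The genes with the most similar profiles were found by the root mean square difference of signals, each centred on its own mean over the 15 arrays. Nearest to Hspa9 were Nup210 (0.11 log2 units) and Mthfd2 (0.11), against a median of 0.43 over all genes. Ctdspl2 and Prpf19 were nearest to Hsp90aa1 (both 0.12), and Nap1l1 and Cmpk2 to Hspd1 (both 0.14). For Hspe1 the nearest was Huwe1 (0.06). On its brightest probe set alone, Hspa8 lay nearest to the ribosomal protein genes Rps9 (0.04) and Rpl19 (0.05), where the median over all genes was 0.24. These distances describe 15 arrays dominated by the step between fresh and cultured cells and carry no test.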

How the data were processed

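Total RNA of 15 samples of LSK cells was measured on Affymetrix Mouse Gene 2.0 arrays, with biotinylated targets made from 500 pg of RNA, per the labels' protocols. The authors deposited 1 signal per probe set and array (41345 probe sets), on a log2 scale by its range, although its base is unstated. Normalization, background correction and genome build: not given in the sources used here. The submitters' processing notes name MAS5 alone. In 29.8% of probe sets at least 2 arrays held exactly the same value, and no 2 arrays were identical.

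Symbols came from the platform annotation: 23521 probe sets had 1 symbol, 1814 several, and 16010 were unnamed here. The brightest probe set per gene was used as deposited. A group-means model was fitted in limma 3.58.1 (R 4.3.3, lmFit and eBayes, 12 residual and 3.66 prior degrees of freedom). It was also run on simulated data, where recovery was required only for changes larger than those of any member here. Within-array differences between 2 members were tested by exact permutation over 252 splits, two-sided, adjusted over 18 tests. Alternatives covered scaling, filtering, probe set choice, block, array weights and left-out arrays. The labels do not say whether samples came from separate animals, so p-values measure the spread between these samples, and the number of arrays limits the precision. In the main fit the replicate number was not treated as a pairing, since the labels do not say that it pairs samples. Same-numbered samples of different groups deviated together by r over 0.1 in 1 of 15 cases. Members and lists were chosen with earlier results of these data known. All members were named, and other list genes by smallest adjusted p, up to 4 per role and comparison, beside a few fixed by name. Promoters came from RefSeq, GRCm38.p6. No column was left unused.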

Additional observations from a re-analysis of the deposited data

Results flagged for a closer look

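In the group without EV, replicate 4 stood apart for Hspa9, at 9.09 against 8.82 to 8.89 in the other 4 arrays. It was the only such array among 27 combinations of 9 members and 3 groups, and chance gives about 1 in 20. A probe set listed under both Hspa1a and Hspa1b, which entered no gene, was higher in all 5 arrays with EV (3.63 to 4.10) than in the 5 without EV (3.47 to 3.61). The difference of log2 0.30 (SE 0.09) did not pass in limma over all probe sets (adjusted p = 0.616). It went the other way from that of Hspa1a (log2 -0.35) and the same way as that of Hspa1b (log2 0.15), neither of which passed. The shared probe set was as dim as those of Hspa1a and Hspa1b, and likewise cannot be told from background. Its value of 3.66 was exactly the same in non-cultured replicates 1, 3, 4 and 5 and in replicate 5 with EV.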

How the results depend on the processing

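Over 12 alternatives, among them the other Hspa8 probe sets chosen after seeing the data, 5 to 7 members were called lower in each culture comparison and none higher. Without EV the 7 were reached only with Hspa8 probe set 17434475. When single arrays were left out, 5 to 6 were called lower. The median over all genes moved by less than 0.1 on the log2 scale under quantile normalization or centring. With EV against without EV no member was called under any alternative run, but small values changed sign. After quantile normalization Hsp90aa1 differed there by 0.0142, and Hsph1 by 0.0030 with EV against non-cultured cells. Hspa9 with EV against without EV was -0.0112 after centring on the median and -0.0030 with array weights. Leaving out single arrays moved it between -0.0356 (replicate 5 with EV) and 0.0754. In that comparison Dnajb1 lay between -0.137 and 0.0649 (without replicate 5 with EV), and Hspe1 between -0.0139 (without replicate 1 without EV) and 0.0698. Hsph1 with EV against non-cultured cells lay between -0.176 and 0.0657 (without replicate 5 with EV) and was 0.0335 without non-cultured replicates 4 and 5. Hspa1b against Hspa8 moved by 0.0110 with EV on the dimmest Hspa8 probe set.

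Of the pairs of members, 2 passed without EV and 4 with EV against non-cultured cells. With the replicate number as a block, 0 and 0 passed, but 5 pairs allow no p under 0.0625. Without non-cultured replicates 4 and 5, 0 and 0 passed as well, with fewer samples. With the mean of all probe sets 2 passed with EV, where the change of Hspd1 against Hspe1 and its unadjusted p stayed the same. Leaving out single arrays gave 2 to 4 without EV, 1 to 4 with EV and 0 to 1 for EV against without EV. Over all genes 4 were lower with EV against without EV, 2 after quantile normalization, 0 with only both groups in the fit and 0 to 4 without single arrays. The cause of these changes was not tested. With the block, members called lower went from 6 to 5 with EV and stayed at 6 without. Same-numbered samples of both cultured groups correlated at 0.023 to 0.187, with 3 of 5 best with their own number, against 2 of 10 in the pairs with non-cultured samples. This is a hint from the data, not from the design.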

Other observations

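Hspa8 also hosts small nucleolar RNAs in its introns. A probe set listed under both Snord14e and Hspa8 entered no gene and was named after its values were seen. It gave 8.78, 8.18, 8.65, 9.65 and 8.96 in non-cultured cells, 7.72, 7.93, 8.22, 7.79 and 7.75 without EV, and 7.10, 7.85, 7.30, 8.44 and 6.98 with EV. In limma over all 41345 probe sets it fell 2.48-fold with EV against non-cultured cells (log2 -1.31, SE 0.29, adjusted p = 0.00901) and differed by -0.96 without EV (SE 0.29, adjusted p = 0.0527), in 24 of 25 pairs of arrays each time. This is more than any of the 4 Hspa8 probe sets with 1 symbol, whose largest fall was 0.36.

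For Hsph1, 3 arrays, 1 in each group, held exactly the same value of 6.26.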
